A study of Ovis aries with 40 samples.

Results

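Longissimus dorsi muscle of Ujumqin sheep fetuses was compared between 100 and 120 d of gestation. The comparison used 6 of the 40 samples of the series, chosen by breed and stage in their titles: 3 fetuses at 120 d (U120) and 3 at 100 d (U100). Ujumqin is a Chinese indigenous breed, and the series also holds fetuses of Texel, a heavily muscled breed, at the same stages. All fetuses were untreated and of purebred parents, taken by caesarean section from ewes that had been synchronised for oestrus and inseminated, so that gestation could be counted in days. Total RNA of each fetus, without pooling, was hybridised to 1 single-colour Agilent sheep array. By the labels, U100 held 1 female and 2 male fetuses and U120 held 3 females, so sex and stage were partly tied together.

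Late in gestation a sheep muscle passes from making fibres to enlarging and maturing them. Myoblasts leave the cell cycle and fuse, the number of fibres nears its final value, and the fibres exchange developmental forms of the contractile proteins for adult ones. Fast fibres draw mainly on glycolysis and slow fibres on mitochondrial respiration, and the enzymes of both rise late in fetal life. The connective tissue around the fibres matures over the same period, and fetal cortisol rises as birth comes near. These points are background and not results of the arrays.

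Values are quantile-normalised log2 signals, and a difference of 1 on that scale is a 2-fold change. Differences are given as U120 minus U100 with the standard error of the fit. A probe was called at an adjusted p under 0.05 (limma, Benjamini-Hochberg over all probes tested) with a change of 2-fold or more. Of 14385 probes tested, 171 were called, which is 1.19%. The called probes comprised 111 that rose (0.772%) and 60 that fell (0.417%), and 27 of them changed 4-fold or more (21 higher, 6 lower). None of the 171 had overlapping values between the 3 arrays of each stage, a pattern also seen in 3362 of all probes (23.4%). The median change over all probes was 0.00, with 5% of probes below -0.66 and 5% above 0.65.

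**Figure D1:**
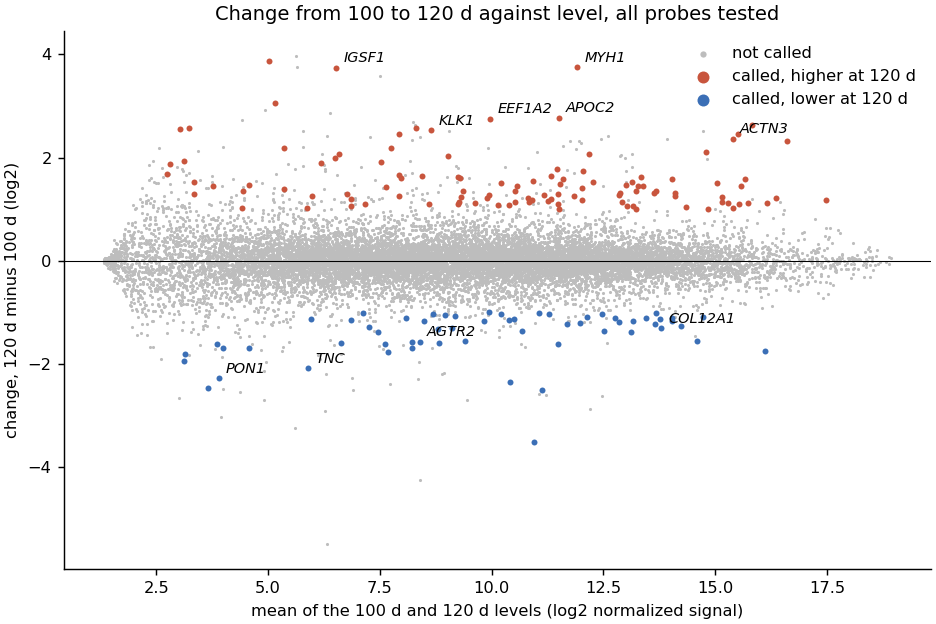
Each point is 1 of the 14385 probes tested, placed by the mean of its U100 and U120 levels (x axis, log2 normalised signal) and its change from 100 to 120 d (y axis, log2). Red points are the 111 probes called higher and blue points the 60 called lower, with selected genes named. MYH1 (A_70_P018506) and IGSF1 lie highest among the named genes, and grey points with large changes did not pass the test.

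The 6 arrays were of like quality, with 86.7% to 89.0% of spots well above background and no saturated spot. They correlated with each other at r = 0.9795 to 0.9932 over 13715 probes. The array of U100 replicate 1 was on a slide of its own, while the other 5 shared 1 slide. Over those 5 arrays (3 against 2, which is also the comparison without U100 replicate 1) 78 probes were called, 75 of them among the 171. In this and every later comparison on the shared slide, the other Ujumqin stages, on other slides, stayed in the fit's estimate of the spread. All 171 kept their direction there and 140 were still 2-fold different. With sex as a covariate 69 probes were called, 63 of them among the 171, and 146 of the 171 were still 2-fold different. Leaving out other single arrays gave 188 calls without U100 replicate 2, 91 without U100 replicate 3, 199 without U120 replicate 1, 88 without U120 replicate 2 and 93 without U120 replicate 3. The probes for XIST, the RNA of the inactive X chromosome, matched the labelled sexes. The most contrasted of them read 1.52 and 1.35 in the labelled males, 8.01 in the female of U100, and 7.46 to 7.79 in U120. The Y-linked gene USP9Y read 12.76 and 12.88 in the males and 1.55 to 5.22 in the females, with the highest female value, in U120 replicate 2, scored as well above background.

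Most probes on this array carry no gene name in the files, and 68 of the 171 called probes could be named. Taking for each of 1190 genes the probe with the smallest p, 48 genes were called (4.03%), of which 36 rose (3.03%) and 12 fell (1.01%). Of these 48 genes, 20 were also called among the 5 arrays of the shared slide and 15 with sex as a covariate, and 17 were called whichever of the 6 arrays was left out. In the sections that follow, a gene said to hold on the shared slide or with sex as a covariate was called in that comparison too.

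The largest changes included unnamed probes. The first 30 of the 60 bases of the 3 highest and the 3 lowest are shown as the array's design lists them, since no name identifies them otherwise.
A_70_P025296: tatcttcagcccacgtgagaaaccgccttt
A_70_P016281: aaccgggtgggaaaggcaataactttggga
A_70_P018502: atgaagctgtatttcaagatcaagcccctt
A_70_P017591: agataaagtggttgctaatatggttccagc
A_70_P003211: aagcagaagatgagctctcatcttttaggc
A_70_P018436: ttctctggtaactggaaaatcatccgatcg
A_70_P025296 read 2.28, 3.03 and 3.96 in U100 and 6.71, 7.50 and 6.68 in U120, a difference of 3.87 ± 0.57 (SE, n = 3 per stage, limma adjusted p = 0.00563). It was well above background on 1 of the 3 U100 arrays, so its lower level is poorly measured. A_70_P018502 was bright at both stages, at 14.37, 14.15 and 14.35 in U100 and 17.04, 16.56 and 16.67 in U120, and its rise of 2.46 was among the most precise of the comparison (SE 0.16). A_70_P017591 showed the deepest fall, from 12.85, 12.03 and 13.23 to 8.90, 9.36 and 9.27 (-3.53 ± 0.51). Its Ujumqin means at the other stages were 12.73 (70 d), 10.14 (85 d) and 11.03 (135 d), without a steady course. In Texel its change over the same interval was 0.41 ± 0.67. A_70_P003211 fell by 2.52 between well-measured levels. A_70_P018436 was not well above background on any U120 array, and its level was at least 2.72-fold lower there. All 6 probes held on the shared slide and with sex as a covariate.

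Genes of the fast fibre included the steepest rises. MYH1 encodes the myosin heavy chain of fast IIx fibres, the motor protein of the thick filament. One probe that the study assigned to MYH1, A_70_P018506, read 9.98, 9.995 and 10.13 in U100 and 14.21, 13.29 and 13.85 in U120. Every U120 array was thus more than 3 log2 units above every U100 array, a 13.4-fold rise (3.75 ± 0.21, limma adjusted p = 1.91e-06). A second probe under that name, A_70_P050846, rose from 14.65, 14.47 and 14.42 to 17.36, 16.91 and 17.16 (2.63 ± 0.18). The remaining probe, A_70_P041866, which the files name OMYHC2X, read 13.62, 13.10 and 13.50 in U100 and 14.02, 13.56 and 13.80 in U120, a difference of 0.39 that was not called (adjusted p = 0.569). The myosin heavy chain genes are near-identical copies of each other, so which of them each probe reports is uncertain. The first 30 bases of the 3 probes are given because their changes differed.
A_70_P018506: aagctttatgaacagcatcttggaaagtcc
A_70_P050846: aagctgaaaaaagcggaggaacaaatcaac
A_70_P041866: actttgcaacaattgcagtcactggggaga
The probe for MYH2, the IIa chain, differed by 0.15 (adjusted p = 0.866).

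EEF1A2 is the form of the translation elongation factor that replaces EEF1A1 in mature muscle and nerve. It read 8.26, 9.001 and 8.51 in U100 and 11.22, 11.28 and 11.52 in U120, a 6.72-fold rise (2.75 ± 0.18, limma adjusted p = 5.26e-06). Its other probe rose by 2.32. EEF1A1 itself differed by -0.46, which was not called (adjusted p = 0.308). ACTN3, the Z-disc actinin of fast fibres, went from 13.54, 14.85 and 14.24 to 16.49, 16.52 and 16.71, and the U100 fetuses were more spread than the U120 fetuses (SD 0.65 against 0.12). Its rise was 5.15-fold. TMOD4, which caps the slow-growing end of the thin filament, rose 2.54-fold, from 12.86, 13.03 and 13.15 to 14.46, 14.34 and 14.26. CASQ1, the calcium-binding protein in the sarcoplasmic reticulum of fast fibres, rose 2.47-fold, from 11.88, 12.60 and 12.21 to 13.64, 13.61 and 13.35. These 5 genes were the called members of a list of fast fibre and sarcomere genes with 12 measured members, none of which was called lower. The list counts EEF1A2, a translation factor, among them. Over all named genes 3.03% were called higher. All 5 held on the shared slide and whichever of the 6 arrays was left out, and 4 also held with sex as a covariate (CASQ1, adjusted p = 0.0535, did not). The other 7 differed by -0.65 to 0.24 and the median over the 12 was 0.20, against 0.02 over all named genes. Among those 7, the probe for TNNC2, the calcium sensor of fast fibres, read 18.80 to 18.99 on all 6 arrays, and TPM1, a tropomyosin, read 17.13 to 17.49. RNA was taken from whole muscle, so more cells of a kind and more RNA per cell cannot be told apart in any of these values.

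**Figure D2:**
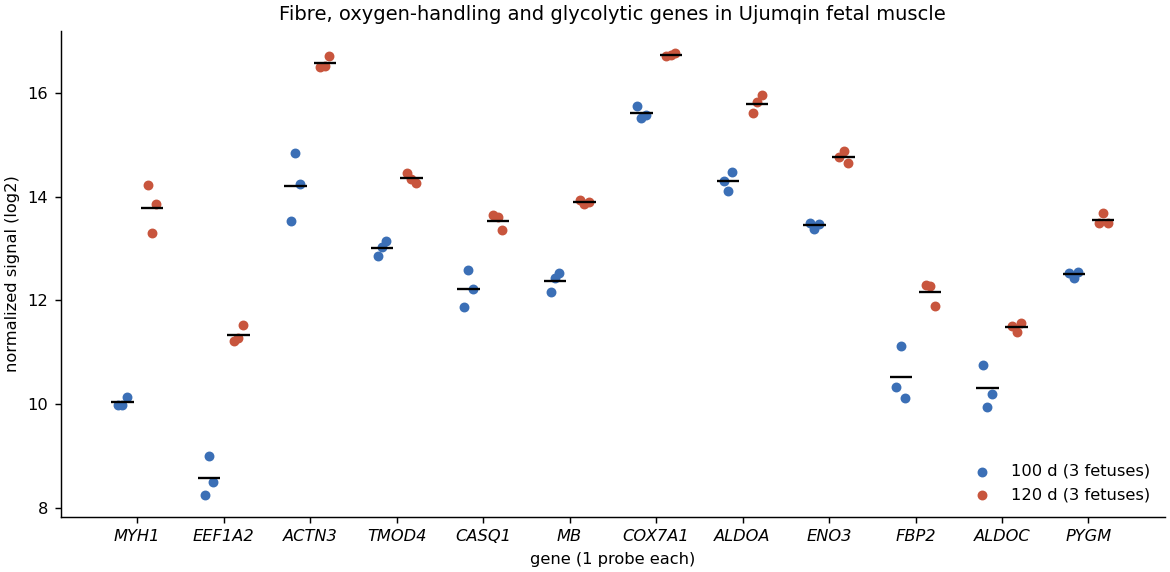
Normalised log2 signal (y axis) of 12 called genes of contraction, oxygen handling and energy metabolism, 1 probe per gene. Each point is 1 fetus (blue, 100 d; red, 120 d; 3 each) and black bars are means. No gene shows overlap between the stages, and MYH1 (A_70_P018506) shows the widest gap. Heights of different probes are not comparable.

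Only 3 genes of the slow and developmental fibre list were measured and none was called. MYH7, the slow myosin heavy chain, read 8.22, 7.75 and 7.82 in U100 and 8.27, 8.77 and 8.75 in U120 (0.67, adjusted p = 0.123). MYL6B, a slow-fibre light chain, differed by 0.63 (adjusted p = 0.0829) with no overlap between stages. The 4 measured genes of calcium handling and excitation, among them the sodium pump subunit ATP1B1 (0.57), gave no call and a median of 0.15. The 5 measured nerve and junction genes also gave no call, and the neuronal STMN2 was as widely spread within a stage (8.87 to 10.92 in U100, 8.43 to 11.73 in U120) as between stages.

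Of 14 measured members of the glycolysis and glycogen list, 6 were called higher and none lower (3.03% of all named genes were called higher). When no minimum fold was asked, 8 were higher at an adjusted p under 0.05 (4.2% of all named genes were). The median change of the list was 0.99, against 0.02 over all named genes. No overlap between stages was seen in 11 of the 14, against 23.4% of all probes tested. The 14 are each gene's smallest-p probe, which favours such separation, and that share was not counted for all named genes. ALDOA, the muscle aldolase, read 14.29, 14.11 and 14.47 in U100 and 15.60, 15.82 and 15.95 in U120, a 2.82-fold rise (1.497 ± 0.19, limma adjusted p = 0.00331). Its second probe rose by 1.21. Another probe that the study assigned to ALDOA, A_70_P001706, is far dimmer and differed by -0.20 (adjusted p = 0.703), so the probes of this gene disagree. ENO3, the muscle enolase, rose 2.49-fold, from 13.49, 13.37 and 13.47 to 14.77, 14.87 and 14.64. ALDOC, the aldolase form best known from brain, rose 2.27-fold, from 10.76, 9.95 and 10.21 to 11.51, 11.39 and 11.57. FBP2, the muscle fructose bisphosphatase that acts against the glycolytic flow, rose 3.11-fold, from 10.33, 11.12 and 10.11 to 12.30, 12.28 and 11.90.

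PYGM, the phosphorylase that releases glucose units from glycogen, and TPI1, triose phosphate isomerase, completed the called set with changes of 1.05 and 1.01, just above 2-fold. GAPDH and LDHA, the dehydrogenases at the middle and the end of the path, rose by 0.97 and 0.90 at adjusted p-values of 0.00563 and 0.00749 on their most precise probes, and by 1.03 to 1.13 on other probes that were called. PFKM, the muscle phosphofructokinase, differed by 0.70 (adjusted p = 0.0571). The glucose transporters were not called, with SLC2A1 at -0.39, SLC2A3 at 0.40 and SLC2A4 at 0.45. PDK4, which restrains entry of pyruvate into mitochondria, read 10.01, 9.50 and 10.40 in U100 and 11.30, 12.12 and 12.83 in U120, without overlap, but was not called (2.11, adjusted p = 0.229). ALDOA and ALDOC held on the shared slide and with sex as a covariate, and the other 4 called members did not. For those 4 the adjusted p on the shared slide lay between 0.0611 (ENO3) and 0.112 (PYGM), with differences of 0.89 to 1.54.

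Of 15 measured genes of mitochondrial respiration and fatty acid oxidation 2 were called, both higher (3.03% of all named genes were). MB encodes myoglobin, the oxygen store of muscle, and read 12.16, 12.43 and 12.53 in U100 and 13.92, 13.86 and 13.89 in U120, a 2.87-fold rise (1.52 ± 0.28, limma adjusted p = 0.0139). Its second probe, which lacks a value for U120 replicate 3, rose by 1.47. COX7A1, the muscle form of a cytochrome oxidase subunit, rose 2.17-fold, from 15.74, 15.51 and 15.57 to 16.70, 16.72 and 16.76. Neither call held on the shared slide (adjusted p = 0.0637 and 0.0590) or with sex as a covariate (0.0645 and 0.127). Of the 15 members, 13 were higher in U120, with a median of 0.34. UCP3, a muscle uncoupling protein, had the largest difference of the list and was not called (2.40, adjusted p = 0.0829), with U100 at 5.81, 7.62 and 8.18 and U120 at 9.35, 9.40 and 10.06.

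Among 19 measured regulators of myogenesis 1 was called, and it fell (1.01% of all named genes were called lower). MYF5, a determination factor of muscle precursor cells, read 10.33, 10.43 and 10.59 in U100 and 8.94, 9.65 and 9.76 in U120. Its difference of -1.001 lies on the 2-fold threshold, and the call was lost whichever single array was left out. MYOD1 (-0.23, adjusted p = 0.666), the other early factor, and MYOG (-0.43, adjusted p = 0.426), the factor of differentiation, were not called. LEF1, a transcription factor of Wnt signalling, differed by -0.73 without overlap but also missed the threshold (adjusted p = 0.258). Of the 19 genes, 14 were lower in U120, and the median was -0.25. TCF7, a factor of the LEF1 family that was in no list, fell 2.44-fold, from 7.81, 7.74 and 8.19 to 6.40, 6.88 and 6.60, but not on the shared slide (adjusted p = 0.0504).

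Of the insulin-like growth factor axis, 12 genes were measured and none was called on its most precise probe. IGFBP2, a binding protein abundant in fetal tissues, read 14.25, 14.05 and 14.51 in U100 and 13.23, 13.38 and 13.37 in U120. It fell by 0.95 (SE 0.16, limma adjusted p = 0.00946), just under 2-fold, and its other probe fell by 1.02 and was called. IGF1 (-0.21), IGF2 (-0.18) and IGF1R (-0.23) were within 0.25 of no change. The median over the 12 was -0.22.

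Cell cycle genes were lower by modest amounts. None of 12 measured was called, but 11 were lower in U120, and the median was -0.61. No overlap between stages was seen in 9 of the 12, against 23.4% of all probes tested. The 12 are likewise each gene's smallest-p probe, so the shares are not like for like. TYMS, thymidylate synthase of DNA synthesis, fell by 0.84 (limma adjusted p = 0.0197), CDK1, the kinase of entry into mitosis, fell by 0.82 (0.0201), and CCNA2, cyclin A2, fell by 0.75 (0.0321). With no minimum fold, 1.76% of all named genes fell at that threshold. CDK1 read 10.47, 10.30 and 10.63 in U100 and 9.49, 9.65 and 9.79 in U120, so that even the closest fetuses were about 0.5 apart. The mitotic kinases AURKB (-0.71, adjusted p = 0.064) and AURKA (-0.67, 0.0839) missed the threshold, and CDK2 differed by 0.04.

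Genes of the extracellular matrix fell in part. Of 21 measured, 2 were called lower and none higher (1.01% of all named genes were called lower). With no minimum fold 4 fell at an adjusted p under 0.05 (1.76% of all named genes did), and the median was -0.42. TNC encodes tenascin C, a matrix protein of developing tendon and connective tissue. It read 6.75, 7.06 and 7.04 in U100 and 5.67, 3.93 and 4.98 in U120, a 4.26-fold fall (-2.09 ± 0.42, limma adjusted p = 0.0234), and the U120 fetuses were widely spread. Its call was kept only without U120 replicate 1 among the 6 single omissions. COL12A1, a collagen that decorates fibrils, fell 2.49-fold, from 14.82, 14.27 and 14.23 to 13.45, 12.998 and 12.93. COL5A2, a fibril collagen chain, fell by 0.88, and MMP2, a gelatinase, fell by 0.52. The chains of the most abundant collagens were not called, with COL1A1 and COL1A2 both at -0.70, COL3A1 at -0.42 and the basement membrane chain COL4A1 at 0.44. Neither TNC nor COL12A1 held on the shared slide (adjusted p = 0.0631 and 0.0590).

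**Figure D3:**
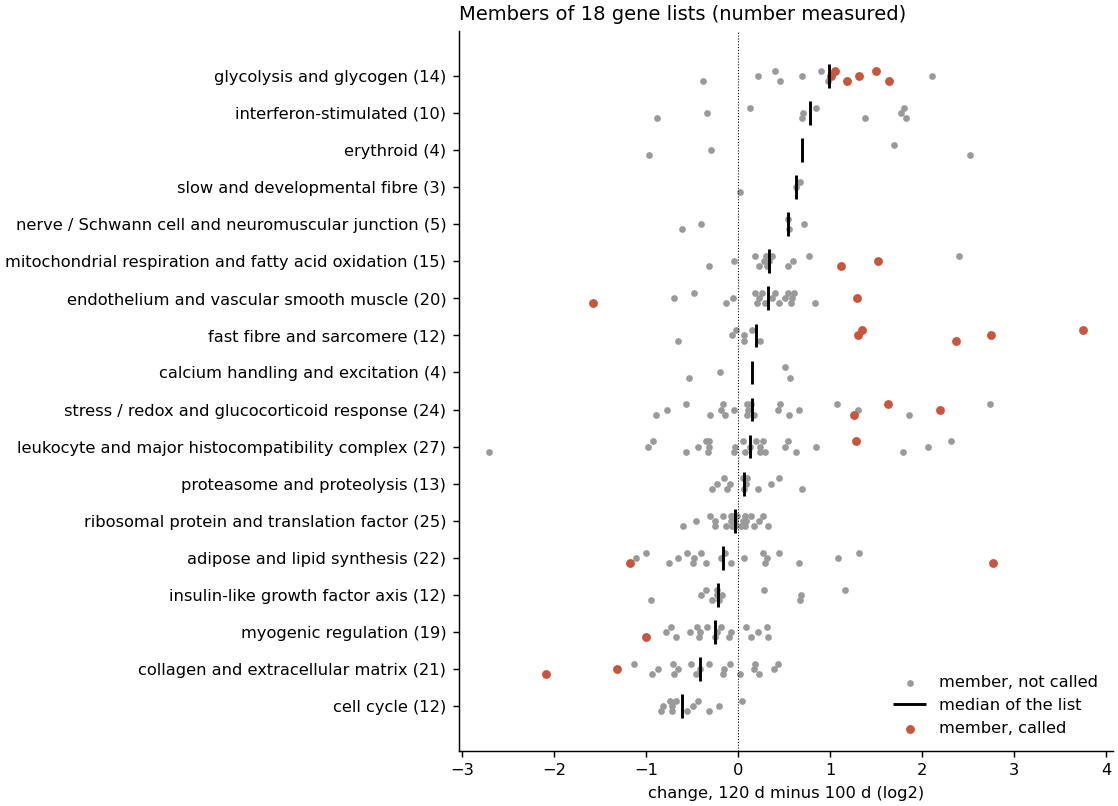
Change from 100 to 120 d (x axis, log2) for the measured members of 18 gene lists, with the number measured in brackets. Each point is a gene, red where called, and the black bar is the list's median. Glycolysis has the highest median (0.99) and the cell cycle the lowest (-0.61), while the fast fibre list combines 5 called genes past 2-fold with 7 between -0.65 and 0.24.

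HSD11B1, which regenerates active glucocorticoid from its inactive form, rose 2.39-fold, from 10.66, 11.85 and 11.16 to 12.74, 12.54 and 12.17. KLF9, a transcription factor induced by glucocorticoid and thyroid hormone, rose 3.09-fold, from 7.97, 8.97 and 8.36 to 10.25, 9.85 and 10.08. GSTA1, a glutathione transferase, rose 4.57-fold, from 6.45, 7.14 and 6.37 to 9.25, 8.46 and 8.83. These 3 were the called members among 24 measured genes of stress, redox and glucocorticoid response, whose median was 0.15. Over all named genes 3.03% were called higher. Of these 3 called members only GSTA1 held on the shared slide and with sex as a covariate. NR3C1, the glucocorticoid receptor, differed by 0.55 (adjusted p = 0.15) and HSD11B2, which inactivates glucocorticoid, by -0.89 (0.153). The immediate early genes EGR1 (2.74), FOS (1.85) and JUN (1.301) were not called, with adjusted p-values of 0.0785, 0.165 and 0.085, and in each of them U120 replicate 2 had the lowest value of its stage.

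ALDH1A1, which makes retinoic acid, rose 4.20-fold, from 10.52, 12.03 and 10.86 to 13.88, 13.04 and 12.70. PGFS, a prostaglandin F synthase, rose 3.41-fold, from 10.12, 11.24 and 10.41 to 12.73, 12.04 and 12.30. In these genes, as in HSD11B1 and KLF9, U100 replicate 2, the female, was the highest of its stage, and neither call held on the shared slide. The probe for EP4a, the file's name for a prostaglandin E receptor of type EP4, was not well above background on any U100 array and was so on 2 of the 3 U120 arrays. It was at least 2.37-fold higher in U120.

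IGSF1 had the smallest p of all probes. The gene encodes a membrane glycoprotein of the immunoglobulin superfamily, and the files describe its probe as inhibin binding protein, an older name. It read 4.49, 4.85 and 4.62 in U100 and 8.66, 8.15 and 8.38 in U120, a 13.4-fold rise (3.74 ± 0.19, limma adjusted p = 1e-06). The second IGSF1 probe was not well above background on any of the 6 arrays. CHRD, an antagonist of bone morphogenetic proteins, rose 3.95-fold, from 5.59, 5.29 and 5.67 to 7.13, 7.84 and 7.51. KLK1, a kallikrein protease, rose 5.76-fold, from 6.90, 7.94 and 7.33 to 9.18, 9.995 and 10.57. MAP3K14, a kinase of noncanonical NF-kappaB signalling, rose 5.47-fold, from 6.99, 6.06 and 7.06 to 9.04, 9.17 and 9.25. Of these 4 genes IGSF1 and MAP3K14 held on the shared slide and with sex as a covariate.

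Genes of lipid handling moved both ways. Of 22 measured in the adipose and lipid synthesis list, 1 was called higher and 1 lower (3.03% and 1.01% over all named genes). The list's median was -0.16. APOC2, the apolipoprotein that activates lipoprotein lipase, read 10.82, 10.46 and 9.08 in U100 and 13.44, 13.30 and 11.94 in U120 (2.78 ± 0.58, limma adjusted p = 0.0267), and in both stages 1 fetus lay well below the other two. INSIG1, which holds back sterol synthesis, fell 2.25-fold, from 10.74, 9.98 and 10.54 to 8.90, 9.12 and 9.73. The adipocyte regulator PPARG (0.66, adjusted p = 0.101), LPL (1.09, 0.129), the adipocyte fatty acid binding protein FABP4 (0.31, 0.915) and the fatty acid synthase FASN (0.06, 0.928) were not called. APOA1, the main protein of high-density lipoprotein, rose 3.16-fold on a probe that the study assigned to it, from 6.91, 7.08 and 7.30 to 9.86, 8.10 and 8.31. Its other probe differed by 0.23, and the highest value came from U120 replicate 1.

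Among the remaining genes that fell, AGTR2 encodes the angiotensin receptor that is abundant in fetal tissue. It read 9.23, 8.88 and 9.42 in U100 and 7.38, 7.61 and 7.82 in U120, a 2.98-fold fall (-1.58 ± 0.23, limma adjusted p = 0.00563), and its second probe fell by 1.70. CBLN2, of a family of secreted synaptic organisers, fell 3.01-fold, from 7.65, 7.27 and 7.33 to 6.32, 5.47 and 5.69. Both held on the shared slide and with sex as a covariate. PON1, a paraoxonase carried on lipoprotein, and PBX3, a homeodomain cofactor, were not well above background on any U120 array, and were at least 2.94-fold and at least 2.22-fold lower there. CALML4, a calmodulin-like protein, fell 2.14-fold, from 15.25, 15.13 and 15.42 to 14.13, 14.26 and 14.12. CSN2, which encodes the milk protein beta-casein, read 14.48, 13.34 and 13.65 in U100 and 12.03, 12.80 and 12.47 in U120, and BCAT1, the cytosolic branched-chain aminotransferase, fell 2.21-fold. Neither CSN2 nor BCAT1 held on the shared slide.

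Genes of vessels and blood cells were examined because whole muscle holds these cells. VEGFA, the growth factor of vessels, rose 2.45-fold, from 10.93, 10.78 and 10.79 to 12.39, 12.08 and 11.90, and with AGTR2 it made the only calls among 20 measured vascular genes, whose median was 0.33. Over all named genes 4.03% were called. The VEGFA call was lost whichever array was left out. The endothelial markers measured (KDR, FLT1 and TEK) had a summed signal of 349 to 414 in U100 and 478 to 516 in U120, and none of the 3 was called. Of 27 leukocyte and histocompatibility genes ITGAL, an integrin chain of lymphocytes, was called (at least 1.92-fold higher), and the median was 0.13. The share called higher over all named genes was 3.03%. The ITGAL call did not hold on the shared slide (limma adjusted p = 0.109) or with sex as a covariate (0.132). Its second probe was not called (adjusted p = 0.615). The 7 leukocyte markers summed to 1745 to 1869 in U100 and 1395 to 1959 in U120, and CD4 was not well above background on any array. In both erythroid markers measured, HBB and AHSP, the level was higher in U120 without a call. The wider erythroid list held 4 measured genes, and the other members, CA1 (-0.97, adjusted p = 0.78) and EPOR (-0.30, 0.816), were lower, also without a call. One HBB probe, for a beta-globin, read 12.62, 13.86 and 13.93 in U100 and 16.14, 16.47 and 15.36 in U120 (2.52, adjusted p = 0.0981), and the other differed by 0.60. That other HBB probe was the brighter of them (means 16.22 in U100 and 16.83 in U120). With 1 probe per gene it was left out of the erythroid sum. The sum was 6395 to 15828 in U100 and 42241 to 90916 in U120. Its part in the other changes was not tested.

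Interferon-stimulated genes set 1 fetus apart. ISG15, a ubiquitin-like protein made on interferon, read 9.25, 9.38 and 9.55 in U100 and 14.09, 9.93 and 9.62 in U120. MX1, an antiviral GTPase, read 10.38 to 10.95 in U100, 14.56 in U120 replicate 1, and 10.94 and 10.46 in the other U120 fetuses. None of the 10 measured members was called, and their summed signal was 54472 in U120 replicate 1 and 4100 at the lowest in U120, against 4543 to 5366 in U100. The same fetus had the highest value of its stage for TNMD, a tendon protein, at 12.99 against 7.80 and 8.96, while U100 read 13.40, 13.47 and 10.70 (-2.61, adjusted p = 0.421). OVAR-DQB1, a class II histocompatibility gene, read 7.86 in U120 replicate 1 and 1.37 and 1.44 in the others, with U100 at 7.51, 4.10 and 7.21. In this gene replicate 1 was near the upper U100 values, and the other U120 fetuses were the low ones.

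The labelled tissue was borne out by its markers. The 12 skeletal muscle markers measured summed to 968044 to 1048681 in U100 and 1063610 to 1117636 in U120. The 5 fibroblast and tendon markers (DCN, COL1A1, COL1A2, COL3A1 and TNMD) summed to 94989 to 121905 in U100 and 56231 to 84140 in U120, with no overlap and none called. Their part in the fall of matrix genes was not tested, and 4 of the 5 are themselves matrix genes of the list described above. The 5 adipocyte markers summed to 3402 to 3449 and 4544 to 5287, with UCP1 not well above background on any array and none called. The single smooth muscle marker (CNN1), the single nerve marker (STMN2), the 3 cartilage and bone markers and the single epithelial marker (EPCAM) overlapped between stages. As genes not tied to fibre type, 25 ribosomal and translation genes gave no call and a median of -0.04, and 13 proteasome and proteolysis genes no call and a median of 0.07.

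The levels at other stages place the interval within fetal life. They are given as means ± SD (n = 3) without a test, since the neighbouring steps share arrays with the comparison. MYH1 (A_70_P018506) stood at 5.54 ± 0.16, 6.61 ± 0.30, 10.04 ± 0.08, 13.79 ± 0.46 and 14.96 ± 0.14 from the earliest stage (70 d) to the latest (135 d). Its level was higher at each later stage. IGSF1 was not well above background on any array at 70 or 85 d, which gives those stages no order, and reached 10.32 ± 0.41 at 135 d. EEF1A2 stayed at 7.12 ± 0.15 and 7.26 ± 0.14 at 70 and 85 d before 8.59 ± 0.38 at 100 d and 12.28 ± 0.17 at 135 d. MB followed another course, at 13.03 ± 0.20 at 70 d, 12.37 ± 0.20 at 100 d, its lowest mean, and 15.54 ± 0.62 at 135 d. AGTR2 was 10.31 ± 0.49 at 70 d and 6.47 ± 0.24 at 135 d, while TNC was 6.90 ± 0.52 at 70 d and not well above background on any array at 135 d. MAP3K14, at 7.57 ± 0.58, 7.70 ± 0.43, 6.70 ± 0.56, 9.15 ± 0.10 and 8.50 ± 0.56 over the 5 stages, had its lowest mean at 100 d and its highest at 120 d. APOA1 (A_70_P021931) was 7.10 ± 0.20 at 100 d, 8.76 ± 0.96 at 120 d and 7.33 ± 0.32 at 135 d, so that its higher level was seen at 120 d and not at the last stage.

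**Figure D4:**
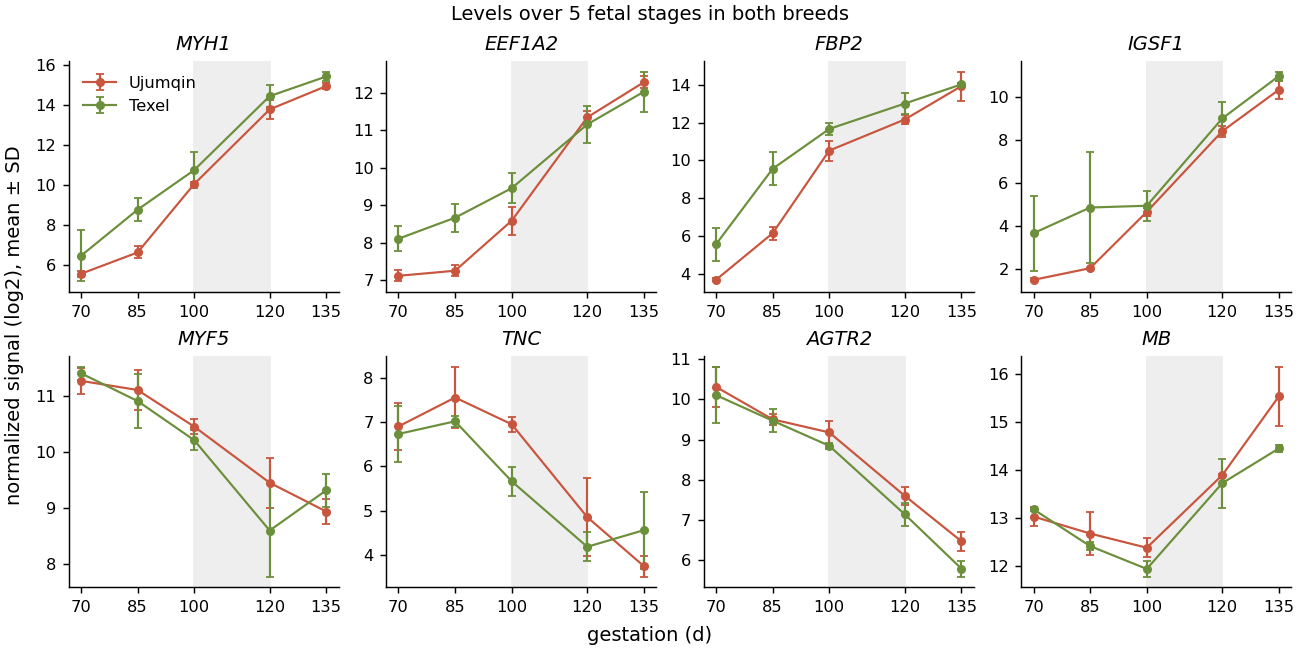
Normalised log2 signal (y axes, mean ± SD) of 8 genes against gestation in days (x axes) in Ujumqin (red, 3 fetuses per stage) and Texel (green), with the interval from 100 to 120 d shaded. In Ujumqin the means of MYH1 (A_70_P018506), EEF1A2 and FBP2 are higher at each later stage and those of MYF5 and AGTR2 lower. MB has its lowest mean at 100 d. IGSF1 at 70 and 85 d and TNC at 135 d were not well above background on any Ujumqin array, and FBP2 at 70 d was so on 1 of 3.

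The same interval was set against that of Texel fetuses (4 at 100 d, 3 females and 1 male, and 3 males at 120 d), which share no array with the Ujumqin comparison. In a fit over all 31 fetal arrays, 794 probes were called in Texel (5.52%) and 122 in Ujumqin. Of the 171 Ujumqin probes, 165 had the same direction in Texel and 113 were called there in that direction. The share of all probes tested with the same direction in both breeds was not counted. MYH1 (A_70_P018506) rose by 3.75 in Ujumqin and 3.71 in Texel, a difference of 0.04 ± 0.65 (limma interaction adjusted p = 0.997). Of the other probes under that name, A_70_P050846 rose by 2.63 in Ujumqin and 2.28 in Texel. A_70_P041866 changed by 0.39 and 0.055, so the probes disagree in both breeds. IGSF1 rose by 3.74 and 4.05, a difference of -0.31 ± 1.09. For EEF1A2 the rises were 2.75 and 1.70, a difference of 1.05 ± 0.38 that did not pass the adjusted threshold (adjusted p = 0.491). KLK1 rose by 2.53 in Ujumqin with 0.62 in Texel, and INSIG1 fell by 1.17 in Ujumqin with 0.17 in Texel, and neither difference between breeds was called.

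The interaction, which tests whether the change differed between breeds, was called for 2 of 14385 probes (0.0139%), and 1125 had an unadjusted p under 0.05. MAP3K14 was at 6.99, 6.06 and 7.06 in U100 and 9.04 to 9.25 in U120, while all 7 Texel arrays read 7.28 to 7.91. Its change was larger in Ujumqin by 2.39 ± 0.41 (limma adjusted p = 0.0328). The unnamed probe A_70_P056166 read 15.51, 16.07 and 14.90 in U100 and 16.37, 16.58 and 16.43 in U120, but 16.55 to 16.71 in Texel at 100 d and 15.22 to 15.77 at 120 d. It differed by 2.03 ± 0.30 (adjusted p = 0.00928). Neither was called in a fit on the 13 arrays alone or with slide as a block. Sex differed between the breeds at 120 d, and sex and breed cannot be told apart at that stage. With sex as a covariate, fitted over all 31 arrays, the MAP3K14 difference was 2.98 (adjusted p = 0.00387) and that of A_70_P056166 1.86 (adjusted p = 0.107).

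**Figure D5:**
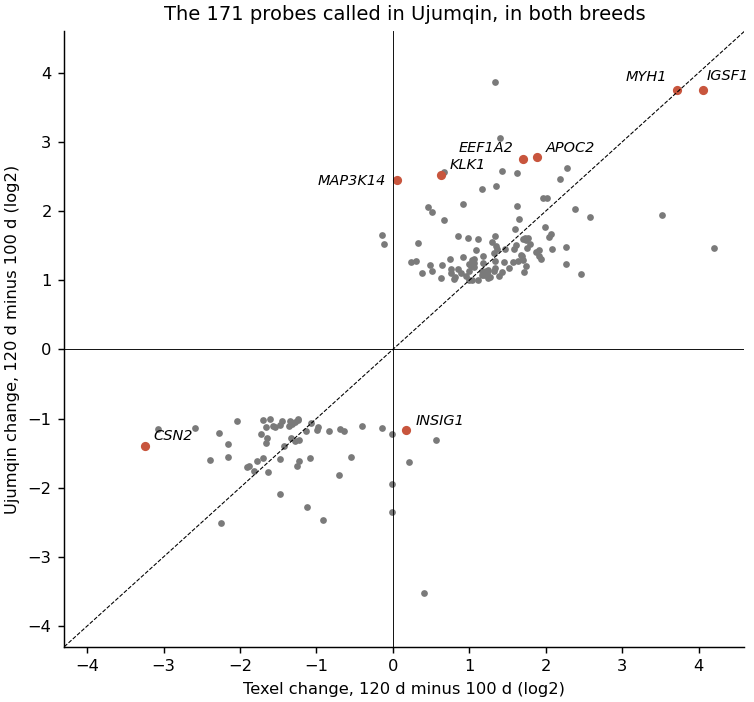
Change from 100 to 120 d in Texel (x axis, log2) and in Ujumqin (y axis, log2) for the 171 probes called in Ujumqin, with named genes in red. The dashed line marks equal change. Of the 171 points, 165 lie in the quadrants of equal direction. MYH1 (A_70_P018506) and IGSF1 lie near the line, and MAP3K14 lies near 0 in Texel.

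Of 33 genes that the study's results name, 30 had a probe tested here. Among them 9 were called higher and 3 lower (3.03% and 1.01% over all named genes). The study chose these genes on arrays that include the present ones, so their number is not independent evidence. Among those without a call, TRRAP, a scaffold of histone acetylation, read 6.02, 4.57 and 4.73 in U100 and 7.56, 7.57 and 7.41 in U120 (2.41, adjusted p = 0.0799), with no overlap. TSHR (-0.07 ± 0.45), MYO9A (-0.11 ± 0.20) and CXCR4 (0.13 ± 0.20) were also without a call. TXNRD1 was not well above background on any of the 6 arrays and GBP4 was so on only 1 of them, so neither has a measured change.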

How the data were processed

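The authors scanned each 1-colour array with Agilent Feature Extraction 10.5, per the labels, and deposited the background-subtracted processed intensity of 15208 spots (15008 probes) per array. They also deposited a table of log2 values, quantile-normalised by their methods, which was used as an alternative. Here control and outlier spots were left out, spots of a probe were averaged, the 31 fetal arrays were quantile-normalised together, and values were floored at 1 before log2 was taken. A probe was kept if Feature Extraction scored it well above background on any of the 31 (14385 probes). Stages were compared with limma 3.58.1 in R 4.3.3 on the 15 Ujumqin fetal arrays, so that 5 stages shared 1 estimate of the spread, and breeds on all 31. The p-values measure the spread between fetuses, and the number of arrays limits their precision.

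Gene names came from the files, from RefSeq accessions and gene IDs, from older names matched by hand, and for 278 probes from the study's own assignment, which gave 1901 named probes. A level was taken as a bound where no array of a stage was well above background: the brighter stage's mean was set against the dimmer stage's, using on each array the higher of the probe's value and the lowest signal well above background. For each gene the probe with the smallest p was used, which favours calls. Genes named were up to 15 per direction with the largest called change, up to 3 unnamed probes per direction, up to 4 called members of each list (or 2 with the largest change), genes named in the study's results, and genes called between the breeds. Other list members are given beside them and were chosen after their values were seen. The comparison, members and lists were chosen with earlier results of these data known. Some genes are not reported here. Alternatives covered normalisation, background, filters, tests, sex, slide and left-out arrays. The procedure was tested on simulated data.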

Additional observations from a re-analysis of the deposited data

Results flagged for a closer look

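The change from 100 to 120 d differed between the breeds, by the test of the difference itself, for MAP3K14 (2.39 log2 units larger in Ujumqin) and for the unnamed probe A_70_P056166 (2.03). Over the alternatives the adjusted p of MAP3K14 ranged from 0.00387 to 0.244 and that of A_70_P056166 from 0.000326 to 0.38 (limma).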

How the results depend on the processing

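The number of probes called moved with several choices, against 171 here. It was 89 with only these 6 arrays normalised and fitted, 94 with only these 6 fitted, 69 with sex as a covariate, 7 with female fetuses only (3 against 1, the lone U100 female being assumed to vary like the other groups), 78 with slide as a fixed block or with arrays of the shared slide only, and 85 with slide as a block over 31 arrays, an alternative chosen after seeing the data. Array weights gave 382 calls, no minimum fold 347, and an unadjusted p under 0.05 with 2-fold 417, the same with an adjusted p under 0.4 added. The methods' t-test gave 243 calls at its unadjusted threshold and 0 after Benjamini-Hochberg adjustment, with 1726 probes at an unadjusted p under 0.05. Leaving out 1 array gave 78 to 199. The same direction was seen for all 171 probes with the shared slide, sex, female fetuses, the replicate block, normexp correction, 75th percentile scaling and the deposited table. The block of replicate numbers gave 153 calls, 143 of them among the 171, and same-numbered fetuses did not deviate together (r = 0.037, -0.038 and 0.055), so the numbers do not pair them. The interaction between breeds (limma) gave 0 calls on 13 arrays alone (994 probes at an unadjusted p under 0.05), 0 with slide as a block (752), and 1 to 204 when 1 array was left out, with 204 reached without T120 replicate 1. Of 2099 values of 81 named genes and probes under 26 alternatives, 327 lost their call and 12 gained one. The sign was opposite in 27 values, which belong to 7 genes and probes, all without a call. No gene or probe called here changed direction. Of the called probes, 8 were well above background on no U100 array and 6 on no U120 array, and have only bounds there. The causes of these shifts were not tested.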

Other observations

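Called genes outside the naming rule, picked out after their values were seen, add other functions to those described. ESR1, the estrogen receptor alpha, rose by 1.41 (limma adjusted p = 0.0471), and TXNIP, an inhibitor of thioredoxin that responds to glucose, rose by 1.14 and 1.11 on its probes. Both called probes of OVAR, a class I histocompatibility gene of sheep, rose by 1.61 and 1.31. BHLHE40, a transcription factor of the circadian clock, rose by 1.06, ART5, an ADP-ribosyltransferase, by 1.08, and SHISA2 by 1.27. The cytokine genes IL12A (1.25) and FLT3LG (1.01) also rose, IL12A between levels of 5.36 and 6.62. On the 5 arrays of the shared slide, IL12A (adjusted p = 0.0343) and ART5 (0.0374) stayed under the threshold on p, and ESR1 (0.145), SHISA2 (0.0768) and both OVAR probes (0.0621 and 0.0864) did not.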
